A study of Bos taurus with 18 samples.

Results

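The region described here is the coat colour window of cattle chromosome 18, a stretch of 1.5 Mb that starts at position 14000000 as the deposited table of single-nucleotide polymorphisms (SNPs) numbers it. Its limits are positions around the gene and use no measured value, although they were set with earlier results of these data known: every SNP site between those limits is a member, together with every gene model to which the table assigns one of those sites. The window held 901 of the 46060 SNP sites listed on chromosome 18 and of the 992284 listed in all. Of these, 755 lay in 35 of the 27376 deposited gene models and 146 were listed with no gene model. Poly(A) RNA had been sequenced from pituitary and hypothalamus of Angus cattle aged 6 months (freshly weaned), 18 months (sexually mature) and 30 months (after a first calf), with 3 cows at each age and none in heat. No agent, transgene or diet was given in the labels, and all 6 groups of 3 libraries came from the same breed.

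MC1R, the melanocortin 1 receptor, is carried on the surface of pigment cells and switches them from red pheomelanin to black eumelanin when it binds melanocyte-stimulating hormone. That hormone is cut from pro-opiomelanocortin, which the pituitary makes in quantity, while the receptor itself acts mainly in skin. In cattle the gene is the Extension locus: an allele with a leucine-to-proline change gives dominant black, a wild-type allele leaves the colour to other genes, and a frameshift allele gives recessive red. Angus cattle are mostly black, and the red allele segregates in the breed.

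The files name gene models by number and not by symbol. The model gene20780 was taken as MC1R from its place and its length. It has 1751 bases, as does MC1R in RefSeq on another assembly (ARS-UCD2.0), and 5 of the 27376 deposited models have that length. In RefSeq the protein-coding neighbours of MC1R are TCF25, on the side of lower coordinates, and TUBB3, but the neighbouring models gene20779 and gene20781 were not given these names. The table lists 1 SNP site in gene20780 and no insertion or deletion. It is T14757910C, where the first base is the reference, the number is the position on chromosome 18 in the table's own coordinates and the last base is the alternative. It changes the codon cTg to cCg, which turns leucine into proline; the position of that residue in the protein was not computed here.

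The proline base was read in 4 libraries, each with 2 reads. These were the 6-month hypothalamus replicates 1 and 3, the 18-month hypothalamus replicate 1 and the 30-month pituitary replicate 2. No reference read was listed in these libraries, and the other 14 libraries had no call and no read listed. Because no animal reached 10 reads, no genotype was assigned, and a missing call here says nothing about which allele an animal carried. The same held at a pair of thinly read sites on the side of gene20779: G14741628C was called in 4 libraries and A14755711G in 5, all from alternative reads only. The 4 animals with proline reads were all among the 5 that shared the block of heterozygous sites described next. Reads at the 2 neighbouring sites came from animals inside and outside those 5. Outside them, G14741628C was read in the 18-month replicate 2 and the 30-month replicate 3, and A14755711G in the 30-month replicates 1 and 3. At this depth no link between the proline base and the block was tested.

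The 2 libraries of each cow could be paired from their genotypes. At autosomal sites read at least 20 times in both, paired libraries had the same genotype at 99.4% to 99.7% of 29189 to 69070 sites, against 50.2% to 66.4% for the 144 other pairs. Replicate 1, 2 or 3 of an age therefore named the same animal in both tissues, and the animal was the unit of all genotype comparisons. A call needed at least 10 reads in a library, and calls that differed between an animal's libraries were left out. At this minimum 207 of the 901 sites were called in at least 1 animal and 72 in all 9. The median depth at a called window site was only 3 to 5 reads per library.

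The animals fell far apart in how heterozygous they were in the window. In the 6-month animals 58.6% (replicate 1), 70.3% (replicate 2) and 74.8% (replicate 3) of calls were heterozygous. The 18-month animals had 64.9%, 10.1% and 11.2%, and the 30-month animals 23.5%, 80.2% and 20.9%, again in the order of replicates 1, 2 and 3. Each share rested on 99 to 140 calls, and the 95% Wilson intervals of the highest of the lower 4 (16.7% to 32.0%) and the lowest of the upper 5 (50.3% to 66.4%) did not overlap. Intervals cover counting error only, and neighbouring sites are inherited together. On the rest of chromosome 18 the same animals lay between 25.4% and 47.5%.

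**Figure D1:**
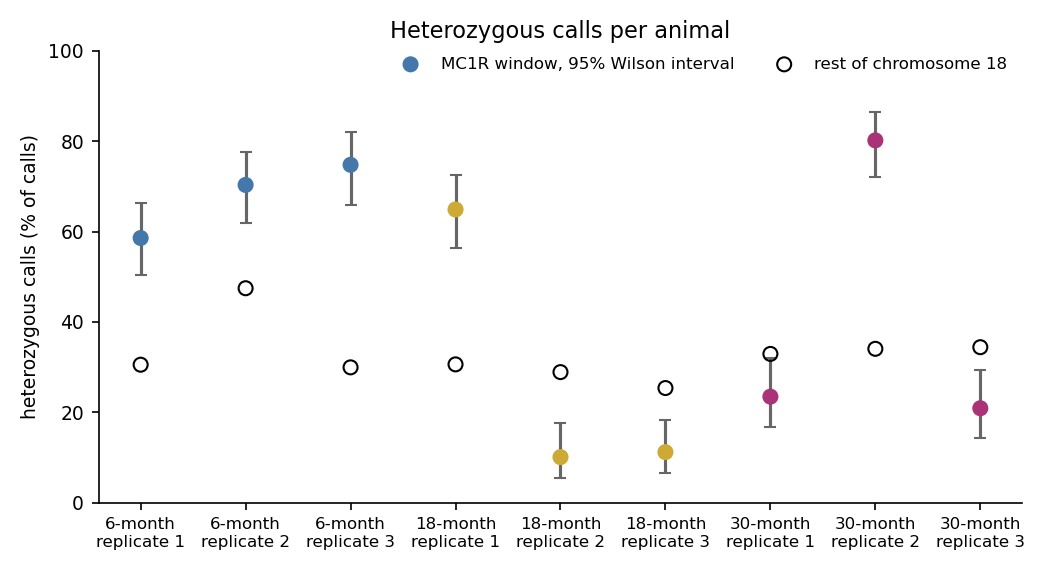
Percentage of genotype calls that were heterozygous in each of the 9 animals (horizontal axis). Filled points give the MC1R window with its 95% Wilson interval (blue, 6 months; yellow, 18 months; purple, 30 months) and open circles the rest of chromosome 18; 5 animals sit at 58.6% or more in the window and 4 at 23.5% or less.

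On average the window was not more heterozygous than the rest of its chromosome beyond the spread between animals. The mean was 46.0% ± 29.02 (SD, n = 9) in the window and 32.7% ± 6.20 elsewhere, a difference of 13.35 percentage points with an SD of 27.0. It was higher in 5 of 9 animals (two-sided exact sign-flip permutation test, p = 0.176, adjusted p = 0.55 over the 4 tests made at the level of animals). By age the window's share was 67.9% ± 8.37 at 6 months, 28.7% ± 31.3 at 18 months and 41.5% ± 33.5 at 30 months (n = 3 each). The ages overlapped, and an exact permutation test found no difference among them (p = 0.275, adjusted p = 0.55; the smallest p it allows is 0.00357).

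Sites at which an animal carried only the alternative base differed from the rest of the chromosome by less than the spread between animals. They made up 16.4% ± 7.67 of calls in the window and 17.7% ± 1.76 on the rest of the chromosome (difference -1.26 points, exact permutation p = 0.582, adjusted p = 0.770, n = 9). In a narrower window inside this one the difference was -17.1 points (exact permutation p = 0.00390625, the smallest possible, n = 9). At heterozygous sites the reference base took a median of 52.0% ± 2.75 of the reads in the window against 52.3% ± 0.590 elsewhere (exact permutation p = 0.770, n = 9). In a wider window around this one the difference was -1.47 points (exact permutation p = 0.00390625, n = 9), and in the narrower one 5.56 points (exact permutation p = 0.184, n = 9).

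The window was then set beside others of its length, and its spread between animals ranked highest. Chromosome 18 had 35 windows of 1.5 Mb with at least 20 sites called in all animals. The SD of 29.02 points was above that of all 34 others, which ranged from 5.45 to 21.2 with a median of 15.6. The mean heterozygosity was exceeded by 1 of the 34 (their median was 32.9%). These ranks are a description of these 9 animals and carry no test.

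**Figure D2:**
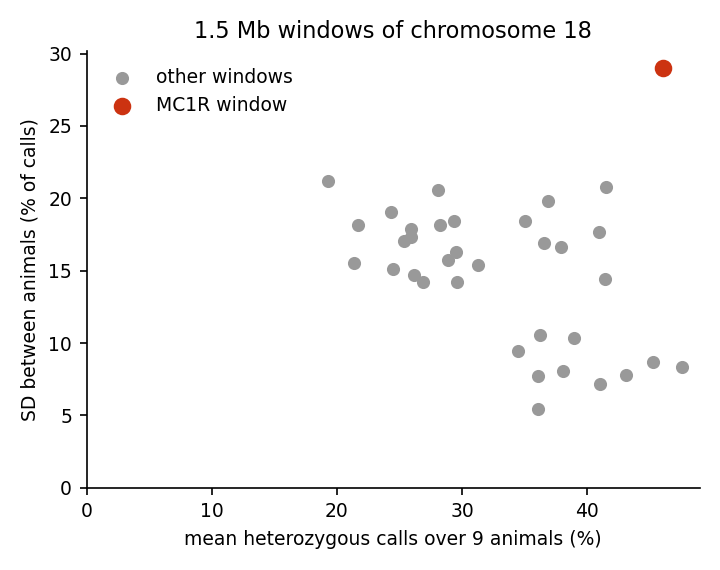
Mean heterozygous share over the 9 animals (horizontal axis, percent of calls) against its SD between animals (vertical axis, percentage points) for 35 windows of 1.5 Mb on chromosome 18. The MC1R window, in red, lies above all 34 others at an SD of 29.02.

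Within the window lay a long run of sites with 1 and the same genotype pattern. At 30 of the 72 sites called in every animal, the 3 animals of 6 months, the 18-month replicate 1 and the 30-month replicate 2 were heterozygous. The 18-month replicates 2 and 3 and the 30-month replicates 1 and 3 carried only the reference base. The run began at position 14377830 and ended at 14648212, over 270382 bases. Of the 33 sites called in all animals between these ends, 3 showed another pattern. The next commonest pattern of the window was seen at 5 sites.

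A leading pattern with a large share of sites was not particular to this window: the 41.7% here was exceeded in 5 of the 34 other windows (their median was 21.2% and their highest 66.7%). This pattern, which was picked from the run itself, occurred at 32 of 77555 autosomal sites called in all 9 animals, and 30 of these were the sites of this run; the others were on another chromosome. Sites of a run are not independent, since a stretch of chromosome passed down whole gives all of them the same genotypes. In the span the 5 animals were heterozygous at 95.1% to 97.8% of their calls and the other 4 at 0% to 5.71% (35 to 48 calls each). Outside the span, but within the window, the 5 had 39.1% to 70.8% and the 4 had 13.1% to 34.7%, so the animals also differed there.

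**Figure D3:**
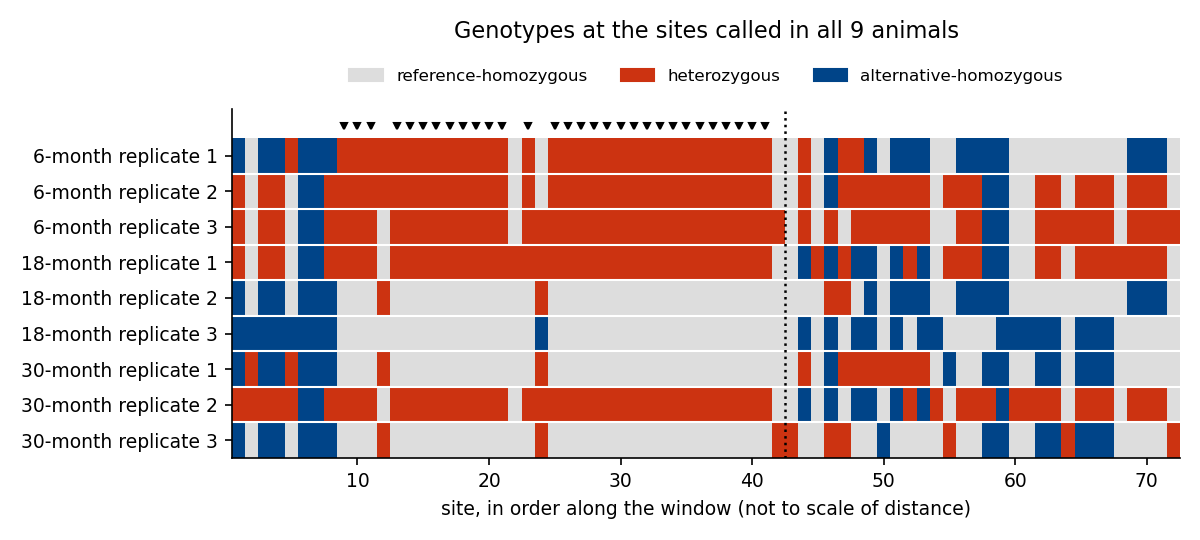
Genotypes of the 9 animals (rows) at the 72 sites called in all of them, in order along the window (columns, not to scale of distance). Triangles mark the 30 sites of the common pattern and the dotted line the place of the site in gene20780; to its right the animals no longer divide into the same 5 and 4.

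The reads behind these calls, which chose the 30 sites and are no separate evidence, divided as follows. The 5 heterozygous animals had 8653 alternative and 8901 reference reads, or 49.3% alternative. The other 4 animals had 7441 reference reads and no alternative read. Reads listed at a site do not measure expression in this table. At the 26 of these sites called in all 18 libraries, libraries called heterozygous listed a median of 1.94 times as many reads as libraries called reference-homozygous. On the rest of chromosome 18 that ratio was 1.38 over 1898 sites. For alternative-homozygous over reference-homozygous calls it was 1.29 there, over 437 sites. A reference-homozygous call thus reached 10 reads less readily than either.

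The run reached farther when shallower sites were read together. Sites were taken that had at least 20 reads over the 5 animals, at least 10 over the other 4, and both bases in at least 3 of the 5. Sites that varied only among the other 4, or had both bases in fewer than 3 of the 5, could not enter. Between positions 14254872 and 14658259, a span of 403387 bases, 86 sites met this rule. At 85 of them the 4 animals had no alternative read. The rule, and ends set at sites with the division, partly fixed this count in advance. The last of the 85 lay 99651 bases short of the site in gene20780. The next site that met the rule, at 14736338, did not show the division, and at it all 9 animals had alternative reads. It lay among other T-to-C sites of a gene20778 intron, from 14736171 to 14736439, where 2.86% to 13.7% of reads were alternative. Whether it is an inherited difference was not tested, so it does not fix where the division ends. Only 1 site called in all animals lay between there and the site in gene20780. It is T14743419C, synonymous in gene20779, and it was heterozygous in the 6-month replicate 3 (89 alternative and 91 reference reads) and the 30-month replicate 3 (76 and 73), 1 animal from each side of the division.

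Beyond gene20780 the patterns were mixed and short. In gene20795, the 2 leading patterns covered 5 sites each, from 15402080 to 15406837 and, among them, from 15405342 to 15405706. At the low end, 4 sites from 14059219 to 14083063 had no reference-homozygous animal, 5 animals carrying only the alternative base. SNP sites were unevenly spread: the 15 bins of 100 kb held from 9 to 160 sites (median 47), and the bin with gene20780 held 20.

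Allele sharing between animals followed the same division. Over 36 pairs of animals, 52.5% to 93.5% of alleles were shared by state in the window (median 65.1%), against 70.9% to 85.0% on the rest of the chromosome (median 79.3%). The mean of 71.4% was below that of 32 of the 34 other windows. The 10 pairs within the heterozygous 5 shared 82.7% to 93.5%. The 6 pairs within the other 4 shared 68.0% to 88.9%, and the 20 mixed pairs 52.5% to 73.7%. No test is given, since pairs share animals and the division came from these genotypes.

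The sites of the run lay in 8 gene models. They comprised 18 synonymous sites, 6 in 3′ untranslated regions (3′UTRs), 2 intronic, 1 downstream of a gene and 3 nonsynonymous sites. The nonsynonymous sites were G14378051A in gene20760 (proline to serine), G14525787A in gene20763 (aspartate to asparagine) and G14555102A in gene20765 (alanine to threonine). At these, the 5 animals had 246, 599 and 92 alternative reads beside 288, 618 and 173 reference reads, and the other 4 had none beside 228, 423 and 192. Genotypes were called from RNA, so only transcribed sequence could show the block, here with coding changes in 3 gene models.

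The gene model with most of these sites, gene20760, had 13 of the 30. It was also where the pattern was interrupted: the 3 exceptions within the run were all nonsynonymous sites of gene20760. At T14378468G (serine to arginine) and G14386923A (proline to leucine), animals of both sides were heterozygous, and G14383285A (alanine to valine) was heterozygous only in the 18-month replicate 1 among the 9 animals. An in-frame insertion in the same gene followed the run. At position 14381468 the table lists T replaced by TCTTCTC, a codon change written aag/aagGAGAAG, which adds a glutamate and a lysine. The 5 animals had 259 reads with the insertion and 356 without, and the other 4 had 187 reads without it and none with it.

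Of the 123 insertions and deletions in the window, 6 were called in all animals, and 3 of these had the pattern of the run. Besides the insertion in gene20760 they were an insertion downstream of gene20763 at 14529144 (47 of 120 reads in the 5 animals) and one in the 3′UTR of gene20770 at 14617446 (109 of 235 reads). The only frameshift listed, in gene20796 at 15441057, had several alternative alleles. The first of these had 5 reads in the 5 animals and 0 in the other 4, and reads of further alleles were not counted. Libraries of both groups held reads outside these counts. The 18-month hypothalamus replicate 2 had depth 4 with 1 reference read, and the 30-month pituitary replicate 2 depth 12 with 10, neither with a first-alternative read.

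Both alleles of the run were read in RNA of every one of the 5 animals, which the choice of its sites requires. Genotypes were called from these same reads, so a site read from 1 allele only would have been called homozygous. The share of alternative reads was 47.5% ± 1.26 (SD, n = 5 animals) in gene20760, 51.1% ± 3.24 in gene20763 and 50.5% ± 2.99 in gene20768. Some sites used for these shares lay outside the run, as in gene20760 with 14 sites beside 13 in the run. The rest of chromosome 18 gave 47.6%. It was 52.9% ± 1.98 at the 1 site of gene20764 and 50.2% ± 2.86 in gene20770, above the rest of the chromosome in 5 of 5 animals in both genes. With 5 animals an exact sign-flip permutation test cannot go below p = 0.0625, which both reached, so no imbalance could be called.

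Shares of alternative reads varied most over the 5 animals in gene models with 1 site (gene20757, gene20769, gene20772 and gene20774). Among those with more than 1 site, the SD was largest in gene20765, whose 2 sites were adjacent. Its libraries ran from 12.7% to 57.9% alternative reads, with a mean of 39.5% ± 7.98 (4 of 5 animals below the rest of the chromosome, exact permutation p = 0.125, n = 5). Libraries of 1 animal did not match there: the 18-month replicate 1 had 56.5% in pituitary (46 reads over 2 adjacent sites) and 12.7% in hypothalamus (79 reads). Requiring 20 reads left 4 animals and a mean of 31.1%.

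**Figure D4:**
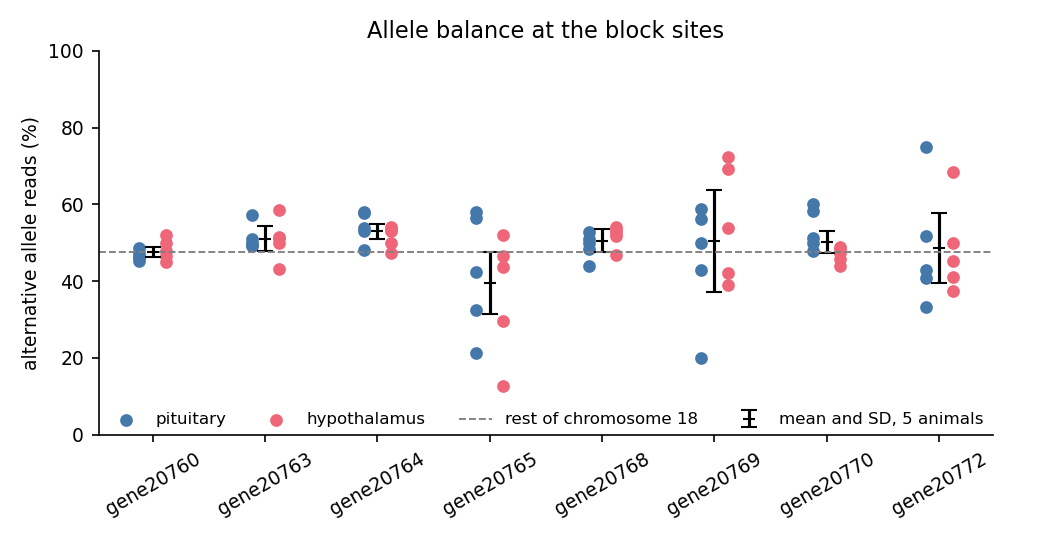
Percentage of reads with the alternative base, for 8 gene models with a value in all 10 libraries of the 5 heterozygous animals (blue for pituitary, red for hypothalamus). Some sites used lay outside the 30 of the run: gene20760 had 14 here and 13 in the run, and the 1 site of gene20769 was not in the run. Black bars give the mean and SD over the 5 animals and the dashed line the rest of chromosome 18 at 47.6%; gene20760 is tight at 47.5% ± 1.26, while gene20765, gene20769 and gene20772 scatter.

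Expression of the window's gene models was compared between the tissues and among the ages. The libraries held 28724861 to 38036840 counted reads (median 31953759.5). The labelled tissues could not be checked against marker genes without gene symbols, and few models told them apart: of 19707 gene models tested, edgeR's quasi-likelihood test called none between pituitary and hypothalamus at adjusted p under 0.05. This test treated the 18 libraries as independent, so its standard errors and p-values do not use the pairing by cow. A fit with the animal as a block also called 0 models of the window. The unpaired test called none of all models. That unpaired edgeR test had 1010 at unadjusted p under 0.05, and DESeq2, also unpaired, called 86 of 19131 adjusted. The 18-month pituitary replicate 3 stood apart in RNA coverage, with 39.2% of its reads at SNP sites lying in 3′UTRs against 21.0% to 30.4% in the other libraries. In whole tissue, fewer cells of a type and less RNA per cell cannot be told apart.

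The gene model taken as MC1R was close to silent in both tissues. Its read counts in pituitary were 9, 2 and 29 at 6 months, 7, 13 and 11 at 18 months and 17, 27 and 13 at 30 months, in the order of replicates. In hypothalamus they were 25, 7 and 33 at 6 months, 23, 30 and 10 at 18 months and 26, 16 and 13 at 30 months. All 6 groups overlapped, and every library had at least 2 reads. In the deposited FPKM (a level scaled for model length and library size), gene20780 had 0.171 as its median in pituitary and 0.276 in hypothalamus. The deposited FPKM was not a fixed rescaling of the deposited counts. In 18-month hypothalamus, gene20769 had a count of 103 and an FPKM of 0.697 in replicate 1, against 32 and 0.679 in replicate 2. Levels in FPKM and fold changes from counts are therefore separate measures. From the counts, the log2 fold change of gene20780 in pituitary over hypothalamus was -0.53 (SE 0.49, edgeR adjusted p = 0.9999). Its level was higher in pituitary in 2 of 9 animals.

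The next model along the chromosome, gene20781, was among the most abundant of the window. Its lowest FPKM was 93.3 and its highest 584, both in pituitary at 18 months (replicates 2 and 3), with medians of 235 in pituitary and 223 in hypothalamus. Its highest value came from the library with the high 3′UTR share, and the part of coverage in that value was not tested. Per length, all 18 of its libraries stood far above every value of gene20780, the highest of which was 0.480. The highest mean FPKM of the window was in gene20764, with medians of 277 in pituitary and 274 in hypothalamus. Its libraries lay between 221 and 403 except the 18-month pituitary replicate 3 at 1608, the library with the high 3′UTR share; the part of coverage in this value was not tested.

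**Figure D5:**
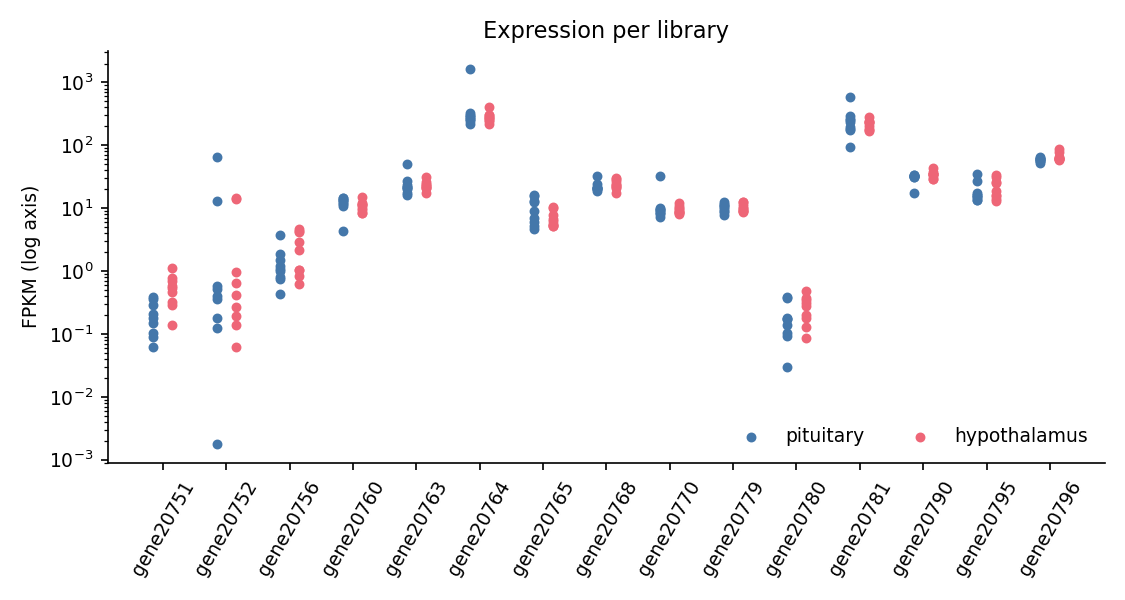
FPKM of 15 gene models of the window in each of the 18 libraries (log axis; blue, pituitary; red, hypothalamus). The tissues overlap in every model shown; gene20780, taken as MC1R, lies between 0.0293 and 0.480, and gene20752 has 4 libraries far above its other 14.

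Of the 35 gene models, 32 passed the filter on low counts and 3 (gene20755, gene20762 and gene20788) did not, with at most 18 reads in any library. No member was called between the tissues by edgeR (0 of 32; over all gene models percent called 0). At unadjusted p under 0.05 there were 2 of 32, beside 5.13% of all gene models. DESeq2 called 0 of 31, beside 0.45%. The median log2 fold change of the 32 was -0.04, and that of all 19707 was 0.04. The 2 members with the smallest p were gene20751 at -1.12 (SE 0.42, edgeR adjusted p = 0.903) and gene20756 at -1.02 (SE 0.42, edgeR adjusted p = 0.929).

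In gene20756 the libraries split within tissues and not between them. In hypothalamus the FPKM was 4.29, 2.14 and 4.59 at 6 months, 1.05, 2.86 and 0.63 at 18 months and 1.04, 4.25 and 0.84 at 30 months. In pituitary it was highest in the 18-month replicate 2, at 3.74, and lowest at 0.43 in the 18-month replicate 3. The 4 libraries above 3 were among the 5 highest in gene20795, a model with 176 SNP sites: its FPKM was 26.4 and 30.9 in 6-month hypothalamus replicates 1 and 3, 33.9 in 30-month hypothalamus replicate 2 and 35.3 in 18-month pituitary replicate 2, against a median of 16.31 over all libraries. The remaining library of those 5 was the 30-month pituitary replicate 2, with 26.9 in gene20795 and 1.87 in gene20756.

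Age gave no call in edgeR either. In pituitary 0 of 32 members passed (0.00539% of all gene models did) and 2 of 32 had an unadjusted p under 0.05 (7.6% of all). In hypothalamus 0 of 32 passed (0% of all) and 1 of 32 had an unadjusted p under 0.05 (4.47% of all). DESeq2 called 1 member in each tissue, 1 of 31 in pituitary (1.46% of all) and 1 of 32 in hypothalamus (0.365% of all), and it was gene20752 both times.

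The counts of gene20752 were almost all or nothing. They were 595 and 548 in 6-month hypothalamus replicates 1 and 3, and 462 and 2576 in 18-month pituitary replicates 1 and 3. The other 14 libraries had 2 to 40. In each of these 4 animals the other tissue was low (9, 21, 7 and 4 reads in the same order), and the third replicate of each high group was low as well. DESeq2's adjusted p was 1.89e-05 in pituitary and 0.00693 in hypothalamus, where edgeR's was 0.645 and 0.958. The count of 2576 came from the library with the high 3′UTR share, and the part of coverage in it was not tested. Reads at the 6 SNP sites of gene20752 were most, at 127, in the library with the highest count, the 18-month pituitary replicate 3. In the other high libraries they did not stand out. They numbered 68 and 33 in 6-month hypothalamus and 58 in the 18-month pituitary replicate 1, beside 38 to 77 in the low libraries. Such reads do not measure expression in this table.

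The remaining members named by the rule for abundance, SNP number or splice sites had overlapping levels in the tissues. The gene model gene20796 had a median FPKM of 60.9 in pituitary and 62.5 in hypothalamus. That of gene20790, with 115 SNP sites, was 32.6 and 34.7. In gene20792, with 64 SNP sites, it was 2.43 and 2.62, and the tissue fold change of this model changed sign in 5 of 25 settings. The models carrying the run overlapped too: gene20760 had 13.16 and 11.1, gene20763 had 21.5 and 22.7, gene20768 had 20.8 and 23.2, and gene20770 had 9.39 and 8.91. Medians of gene20765 were 9.07 in pituitary and 6.23 in hypothalamus (log2 fold change 0.48, SE 0.26, higher in pituitary in 7 of 9 animals, edgeR adjusted p = 0.9999). Beside gene20780, gene20779 had 10.3 and 10.02, and gene20784 had 6.83 and 5.75. None of these models passed edgeR's test between tissues at adjusted p under 0.05.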

How the data were processed

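The authors deposited whole-number read counts per gene model with gene model lengths (other values), FPKM for the same models, and tables of SNP and indel genotypes with reads per allele, per the file headers. HISAT2, StringTie, GATK and DESeq are named in the submitters' processing notes, without versions; the genome build is not given in the sources used here. Tissue, age and replicates came from the labels and column names. Every column was mapped, 0 were left over. The window, gene models and pattern were chosen with earlier results of these data known.

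Genotype measures were compared over 9 animals, 512 sign arrangements or 1680 splits by age, with Benjamini-Hochberg adjustment over 4 tests (Python, numpy, pandas, scipy). Counts were tested with edgeR 4.0.16 (TMM, filterByExpr, quasi-likelihood, Benjamini-Hochberg over all gene models, adjusted p under 0.05), tissues over 18 libraries and ages over the 9 of each tissue, and tested on simulated data. DESeq2 1.42.0 and limma 3.58.1 on log2 of FPKM plus 1 or 0.1 were alternatives. The biological coefficient of variation was 58.0% for tissue, 58.6% and 51.6% for age in pituitary and hypothalamus. Named models were those with the SNP sites nearest to MC1R, the 10 of highest mean FPKM, the 5 with the largest tissue fold change, the 5 with most SNP sites, those with a splice or frameshift site and those called in any test. Lists of melanocortin, pigment and cell type genes were not run, since the files pair no identifier with a symbol (0 of 35 matched RefSeq). Nothing states that the cows are unrelated, and p-values measure the spread between these samples.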

Additional observations from a re-analysis of the deposited data

Results flagged for a closer look

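The heterozygous share on the rest of chromosome 18 was 47.5% in the 6-month replicate 2 and at most 34.4% in the other 8 animals, a gap large enough to set 1 animal of 9 apart; chance does so in about 1 in 20 groups. It was not limited to chromosome 18: over the other autosomes this animal had 43.4% and the other 8 had 31.4% to 35.8%. In the window this animal had 70.3%, within the range of the 5 animals that shared the run.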

How the results depend on the processing

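Leaving out 1 animal at a time kept the sides of the threshold: the difference in heterozygous share ranged from 9.25 to 17.4 points, in alternative-homozygous share from -2.33 to 0.10, in reference read share from -0.97 to 0.10, in the share of variation between ages from 26.4% to 62.4%, and in allele sharing from -10.1 to -4.98 points. The alternative-homozygous share became lower in a narrow window inside this one (-17.1 points, exact permutation p = 0.00390625, the smallest possible, n = 9), and the reference read share in a wide window around it (-1.47 points, exact permutation p = 0.00390625, n = 9), while the narrow window gave 5.56 points (exact permutation p = 0.184, n = 9) and 6 of 17 alternatives changed its sign; the cause was not tested. DESeq2 called 1 member by age in each tissue where edgeR called 0. With the replicate block of animal, tissue pairing called 0 members. Over 16 named models and 25 settings no tissue call changed in 398 values, and 15 changed sign. With minimums of 5 and 20 reads, chosen after seeing the data, the pattern held 39 of 99 and 24 of 57 sites, and it held 15 of 32 in pituitary and 28 of 65 in hypothalamus alone. Depth limits the window: MC1R's site had 8 reads in all.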

Other observations

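All 4 splice-region sites of the window were thinly read: T14098765C in gene20756 was called in 3 animals, and A14515778G in gene20763, C14808322G in gene20784 and G15395399T in gene20795 in none. At A14515778G, which lies within the run, the 5 heterozygous animals had 22 alternative and 22 reference reads and the other 4 had 7 reference reads only.

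In gene20795 the nonsynonymous site T15402202C (valine to alanine) was alternative in all but 1 animal: 7 of 9 carried only the alternative base, 1 was heterozygous and the 18-month replicate 3 had only the reference base. Another of its sites, G15388805T (cysteine to phenylalanine), was heterozygous in 5 animals (6-month replicates 2 and 3, 18-month replicate 1 and 30-month replicates 1 and 2), alternative-homozygous in 2 (6-month replicate 1 and 18-month replicate 2) and reference-homozygous in the other two.

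An intronic site of gene20781, A14766487G, had alternative reads in 9 of 9 animals at 16.17% of 303 reads, and T14736338C in an intron of gene20778 had them in 9 of 9 at 40.7% of 113 reads. No cause was tested for either.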
